A study of Mus musculus with 15 samples.

Results

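The genes of cholesterol synthesis, uptake and efflux were described in mouse liver tumours with and without hepatocyte Hmgb1 and in normal liver. The set was a list of 31 genes named for their known roles, out of 23284 gene symbols in the count table, and its members were found by symbol. They fell into 4 sterol sensing genes, 7 enzymes of the mevalonate arm, 10 enzymes of the squalene and sterol arm, 4 genes of uptake, transfer and esterification, and 6 genes of efflux and its nuclear receptors. All 31 symbols were in the table, and 30 had enough counts to be tested.

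Bulk RNA of whole tissue was sequenced after poly-A selection in 15 libraries. Hmgb1-deleted tumours gave 6 libraries, from mice labelled Hgmb1Dhep, which carried floxed Hmgb1 alleles and Albumin-Cre, a Cre recombinase driven by a hepatocyte promoter. Floxed tumours gave 6 libraries, from mice labelled Hgmb1fl/fl, for which no Cre is named. Mice of both tumour groups had received diethylnitrosamine (DEN, a carcinogen activated in hepatocytes) by the intraperitoneal route, 25 mg/kg on day 15 after birth. Both then received carbon tetrachloride (CCl4, a liver toxin) in corn oil, 0.5 ul/g each week for 15 weeks from week 8. Normal livers of control C57Bl/6 mice gave 3 libraries, for which no treatment is named. The age of the mice at collection is not stated. No DEN- and CCl4-treated liver without a tumour was analysed here, so tumour, treatment and strain cannot be told apart in a comparison with normal liver. Macrophages, endothelial cells and other cells outside the Albumin-Cre lineage keep Hmgb1 in the deleted mice.

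Cells make cholesterol from acetyl-CoA by way of mevalonate, isoprenoid diphosphates, squalene and lanosterol. When membrane sterol is low, SCAP escorts the transcription factor SREBP-2 from the endoplasmic reticulum to the Golgi, where it is cut and released to switch on the genes of synthesis and uptake. When sterol is high, INSIG proteins hold SCAP back, and oxysterols activate the liver X receptors (LXR), which switch on genes of efflux. The liver makes, esterifies, secretes and excretes into bile much of the body's cholesterol.

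Promoter sequence is shown for the enzymes that were called in floxed tumours against normal livers and had 1 entry in the promoter table. It is also shown for Hmgcs1, the one member in that table with the exact sterol regulatory element letters. These genes were chosen after their values were seen. Each run is the 150 bases before the transcript start in the RefSeq promoter table (GRCm38.p6), 5′ to 3′ on the gene's strand. Capitals mark CCAAT, the box bound by the factor NF-Y that works with SREBP-2, on either strand (ATTGG on the reverse), and TCACNCCAC, the sterol regulatory element letters.

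Hmgcs1: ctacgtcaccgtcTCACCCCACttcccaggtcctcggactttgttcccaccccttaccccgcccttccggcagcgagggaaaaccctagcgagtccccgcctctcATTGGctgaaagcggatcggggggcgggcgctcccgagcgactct
Mvd: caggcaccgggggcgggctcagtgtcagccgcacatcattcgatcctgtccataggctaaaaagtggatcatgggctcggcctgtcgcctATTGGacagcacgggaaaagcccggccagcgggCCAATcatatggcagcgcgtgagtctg
Lss: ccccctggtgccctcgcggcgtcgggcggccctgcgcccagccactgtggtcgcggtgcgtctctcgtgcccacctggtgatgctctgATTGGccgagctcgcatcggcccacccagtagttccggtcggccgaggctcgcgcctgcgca
Idi1: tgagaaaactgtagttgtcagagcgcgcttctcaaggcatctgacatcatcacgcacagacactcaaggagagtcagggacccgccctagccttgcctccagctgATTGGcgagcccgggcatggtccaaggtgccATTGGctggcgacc
Tm7sf2: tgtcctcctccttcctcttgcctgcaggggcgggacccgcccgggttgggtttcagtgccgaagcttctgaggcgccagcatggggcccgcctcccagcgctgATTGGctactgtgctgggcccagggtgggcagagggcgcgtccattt
Hsd17b7: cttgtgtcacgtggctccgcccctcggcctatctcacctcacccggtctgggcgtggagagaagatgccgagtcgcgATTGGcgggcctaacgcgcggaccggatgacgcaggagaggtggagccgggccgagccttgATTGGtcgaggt
Ebp: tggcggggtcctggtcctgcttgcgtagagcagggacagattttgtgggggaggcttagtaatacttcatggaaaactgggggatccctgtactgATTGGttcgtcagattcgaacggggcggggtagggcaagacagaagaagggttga

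In GRCm38.p6 coordinates these runs are, in the same order, chr13:119690201-119690350 on the plus strand, chr8:122443423-122443572 on the minus strand, chr10:76531455-76531604 on the plus strand, chr13:8885456-8885605 on the plus strand, chr19:6067851-6068000 on the minus strand, chr1:169969206-169969355 on the minus strand and chrX:8193513-8193662 on the minus strand. Of the 31 members, 24 had an entry in that table. In the 250 bases before the start, CCAAT was present on either strand in 18 of the 24. It was present in 13 of 14 synthesis enzymes and in 5 of 10 other members, against 37.5% of the 27025 genes in the table and 33.8% of its promoters. The letters TCACNCCAC were found on either strand in Hmgcs1 alone among the 24 members, at bases -137 to -129. They were found in 1.22% of all genes in the table and in 1.05% of all promoters. The repeat bound by LXR, AGGTCA followed after any 4 bases by AGGTCA, was found on either strand in none of the 24. It was found in 0.0148% of all genes and in 0.0152% of all promoters. Only these exact letters were searched, so sites that differ from them would be missed. The 7 members without an entry, Abcg1, Sqle and Stard4 among them, were not searched. The 3 motifs do not overlap in the printed runs. Among the printed enzymes, those that were lower in floxed tumours (Idi1, Tm7sf2, Hsd17b7, Ebp) and those that were higher (Mvd, Lss) all held CCAAT. Pmvk, also lower, had 2 entries and held CCAAT, and Sqle, also higher, had no entry. With CCAAT in 13 of 14 synthesis enzymes, its presence does not bear on direction.

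Library totals ran between 18973246 and 26293378 counts in Hmgb1-deleted tumours, between 20191452 and 30929442 in floxed tumours, and between 23193714 and 26997782 in normal livers. Levels are given as CPM, each gene's count relative to its library total after scaling by the trimmed mean of M-values. Hmgb1 averaged 14.8 ± 2.76 CPM in Hmgb1-deleted tumours and 27.9 ± 3.36 CPM in floxed tumours (SD, n = 6 each), without overlap, so the deleted group held 52.8% of the floxed level (two-sided exact permutation p = 0.00216, the smallest p that 6 against 6 allows). Hepatocyte markers were abundant in every library, with a summed level of 78575 to 180779 CPM in Hmgb1-deleted tumours, 113381 to 295950 CPM in floxed tumours and 120022 to 147330 CPM in normal livers. Floxed tumour 5 stood apart, with the highest summed macrophage markers (969 CPM) and stellate and fibroblast markers (1267 CPM) and the lowest hepatocyte markers of its group. In bulk tissue, fewer cells of a type and less RNA per cell cannot be told apart. Whether each library is a separate mouse is not stated, and p-values rest on library-to-library spread.

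**Figure D1:**
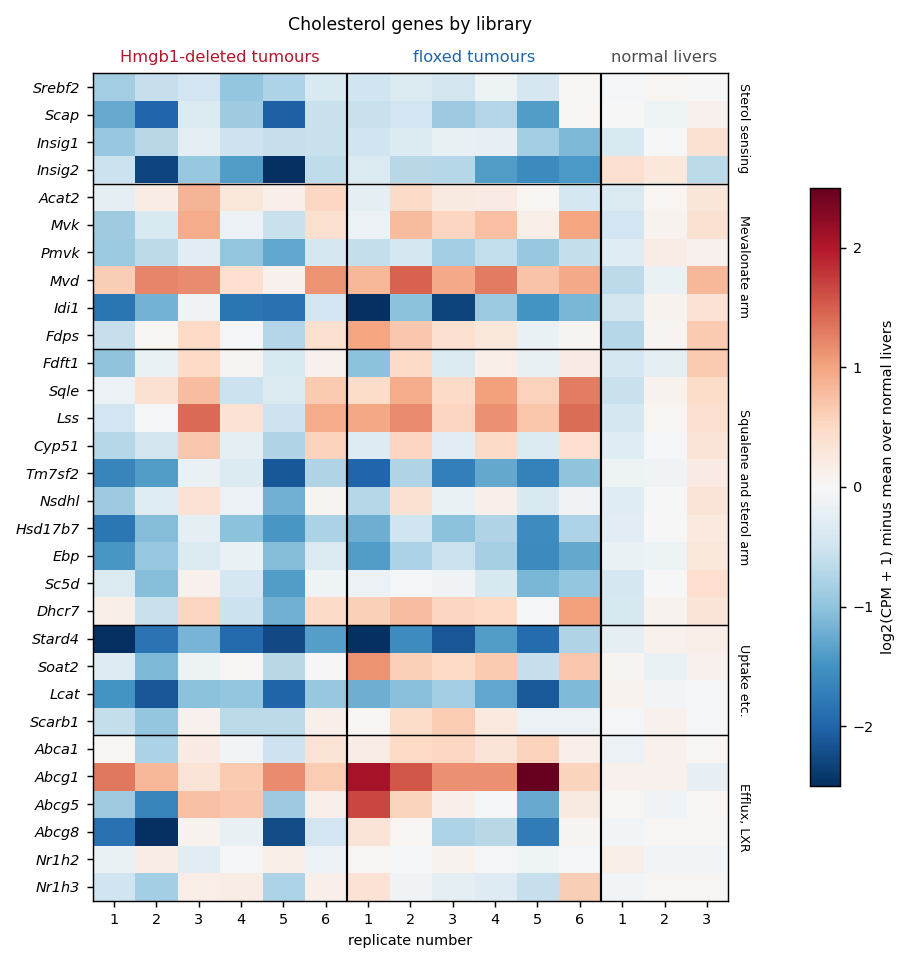
Level of each of the 30 tested members (rows, in groups by role) in each of the 15 libraries (columns), as log2(CPM + 1) minus the mean of the normal livers, with colours capped at 2.5 in either direction. Stard4 and Lcat are below normal in all 12 tumours, Abcg1 is above normal in all 12, and in floxed tumours Mvd and Lss are above normal where Idi1, Tm7sf2 and Ebp are below.

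Hmgb1-deleted tumours were set against floxed tumours to ask what loss of hepatocyte Hmgb1 did to these genes within tumours. None of the 30 tested members passed edgeR's quasi-likelihood test at an adjusted p under 0.05, where 7.78% of the 13433 genes tested did so, 4.45% higher and 3.33% lower. The nearest was Soat2, which makes cholesteryl esters in hepatocytes, at an adjusted p of 0.0525. Of the 30 log2 fold changes 25 were negative, with a median of -0.20 against 0.02 over all genes tested, and 7 members had an unadjusted p under 0.05, where 24.3% of all genes did so. No member had groups that did not overlap, against 4.93% of all genes tested, 2.61% higher and 2.32% lower. DESeq2 and limma-voom each called 1 member, Soat2, where they called 14.5% and 11.2% of all genes.

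Soat2 had 28.9, 54.6 and 65.2 CPM as its lowest, median and highest level in Hmgb1-deleted tumours, against 42.7, 98.8 and 139.6 CPM in floxed tumours. The floxed tumours other than number 5 were all above every deleted tumour, and number 5 lay inside the deleted range. The log2 fold change was -0.88 ± 0.26 (SE), with a 95% interval from -1.44 to -0.33. Without floxed tumour 5 it was -1.04 ± 0.20, with an adjusted p of 0.0135 by edgeR. Soat2 also passed the test in 8 other of the 24 alternatives, with adjusted p between 0.00924 and 0.113 over all of them.

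Scarb1, the receptor that takes up cholesteryl ester from HDL, had 102, 129 and 218 CPM as its lowest, median and highest level in Hmgb1-deleted tumours, against 179, 222 and 308 CPM in floxed tumours. Deleted tumours 3 and 6 reached into the floxed range and the other 4 lay below it. The log2 fold change was -0.58 ± 0.22 (SE, edgeR adjusted p = 0.133).

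Srebf2, which encodes SREBP-2, had 39.0, 47.9 and 59.2 CPM as its lowest, median and highest level in Hmgb1-deleted tumours, against 54.6, 58.7 and 78.7 CPM in floxed tumours. The 2 ranges overlapped at their edges. Its log2 fold change was -0.35 ± 0.14 (SE, edgeR adjusted p = 0.142). Insig1, an INSIG protein that is itself a SREBP target, had 214, 280.5 and 352 CPM in Hmgb1-deleted tumours, against 189.7, 311 and 369 CPM in floxed tumours. The deleted range lay inside the floxed range, and the 95% interval of the log2 fold change ran from -0.46 to 0.35. Insig2, the other INSIG, had 51.9, 135 and 208 CPM in Hmgb1-deleted tumours, against 99.9, 149.6 and 235 CPM in floxed tumours, with a 95% interval from -0.98 to 0.54. Scap, the SREBP escort, had 48.2, 95.5 and 158 CPM in Hmgb1-deleted tumours, against 75.8, 128 and 206 CPM in floxed tumours. Both groups spread widely for Insig2 and Scap, and neither passed the test.

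Among the synthesis enzymes, Sqle, the squalene epoxidase that controls flux through the late pathway, had 67.5, 108 and 167 CPM as its lowest, median and highest level in Hmgb1-deleted tumours, against 135, 167 and 240.3 CPM in floxed tumours. Deleted tumours 3 and 6 overlapped the floxed range. Its log2 fold change was -0.59 ± 0.25 (SE, edgeR adjusted p = 0.170). Dhcr7, which makes cholesterol in the last step, averaged 124 ± 54.7 CPM in Hmgb1-deleted tumours and 197 ± 45.5 CPM in floxed tumours (SD, n = 6 each), with a log2 fold change of -0.64 (edgeR adjusted p = 0.190). The other 14 tested enzymes had log2 fold changes between -0.54 and 0.49, and over all 16 the median was -0.09. The largest positive values were in Idi1 (0.49), Tm7sf2 (0.45) and Ebp (0.39), with adjusted p of 0.528, 0.431 and 0.362.

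Among the efflux genes, Abcg1, which exports cholesterol to HDL and is prominent in macrophages, had 9.19, 12.6 and 19.4 CPM as its lowest, median and highest level in Hmgb1-deleted tumours, against 11.02, 19.95 and 64.6 CPM in floxed tumours. Floxed tumour 5 was the highest, and the next was floxed tumour 1 at 33.5 CPM. The log2 fold change was -0.97 ± 0.37 (SE, edgeR adjusted p = 0.130), and without floxed tumour 5 it was -0.52 ± 0.27 (adjusted p = 0.262). Abca1, which loads cholesterol onto lipid-poor apolipoprotein A-I, had 116, 202 and 258 CPM in Hmgb1-deleted tumours, against 221, 270.2 and 304 CPM in floxed tumours. Its ranges overlapped, with a log2 fold change of -0.44 ± 0.19 (SE, edgeR adjusted p = 0.183).

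Abcg5 and Abcg8, the paired half-transporters that secrete cholesterol into bile, spread widely among tumours. Abcg5 had 32.7, 85.0 and 174 CPM in Hmgb1-deleted tumours, against 43.3, 118 and 335 CPM in floxed tumours. Abcg8 had 19.02, 67.2 and 145 CPM in Hmgb1-deleted tumours, against 40.2, 112 and 171 CPM in floxed tumours. The groups overlapped over most of their range for both genes, and the 95% intervals of the log2 fold changes ran from -1.56 to 0.53 for Abcg5 and from -1.62 to 0.53 for Abcg8. Nr1h2, which encodes LXR beta, gave the narrowest interval of all members, from -0.22 to 0.22, around means of 43.2 ± 5.68 CPM in Hmgb1-deleted tumours and 43.9 ± 2.28 CPM in floxed tumours (SD, n = 6 each). The interval stayed within 1 log2 unit of 0 for 18 of the 30 members and reached past it for 12.

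**Figure D2:**
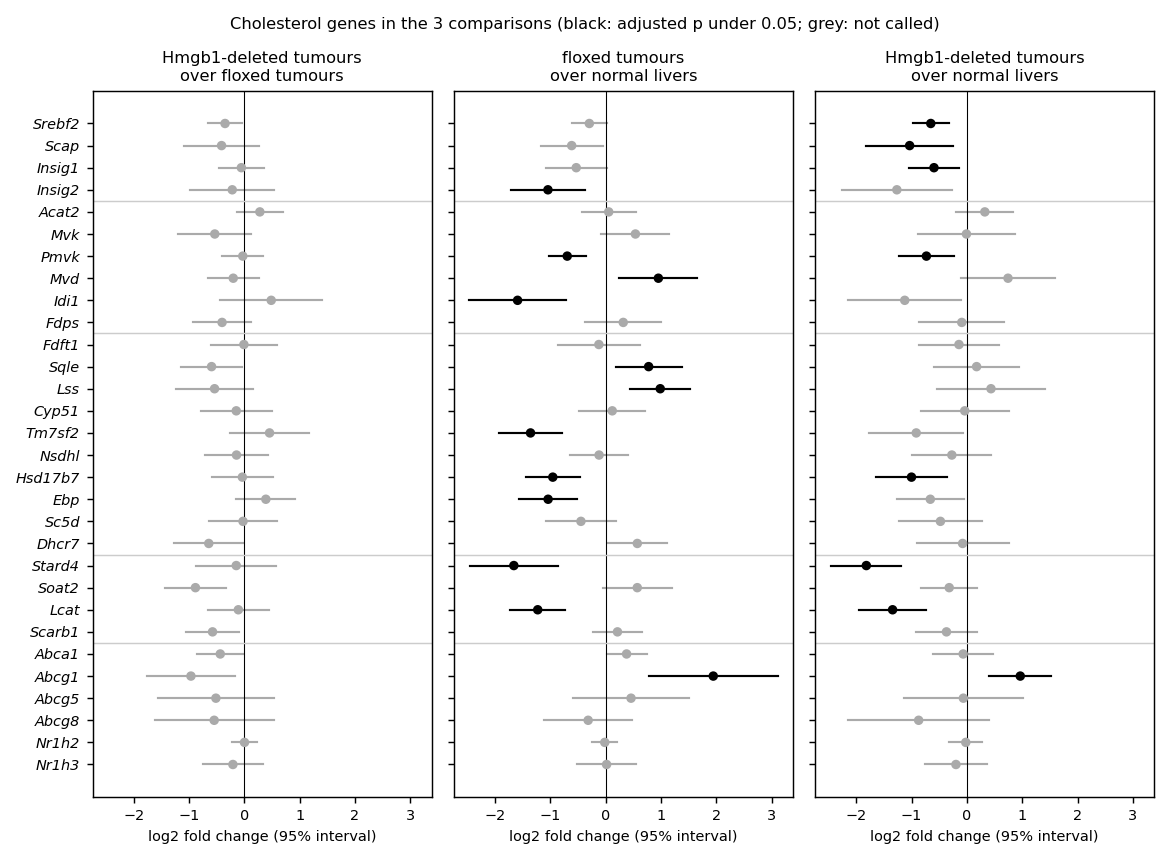
Log2 fold change of the 30 tested members (rows, in groups by role) with 95% intervals, for Hmgb1-deleted over floxed tumours, floxed tumours over normal livers, and Hmgb1-deleted tumours over normal livers. Black points passed an adjusted p of 0.05 by edgeR: 0 members in the first panel, 12 in the second and 8 in the third.

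Floxed tumours were set against normal livers to see how these genes stood in tumours with intact Hmgb1. Of the 30 members 12 passed the test (edgeR adjusted p under 0.05), 4 higher and 8 lower, where 48.7% of the 13784 genes tested did so, 24.9% higher and 23.8% lower. Groups did not overlap for 10 members, 3 higher and 7 lower, against 46.3% of all genes, 22.9% higher and 23.4% lower. Both shares were no higher than those of all genes. The members that rose were Mvd, Sqle, Lss and Abcg1, and those that fell were Insig2, Pmvk, Idi1, Tm7sf2, Hsd17b7, Ebp, Stard4 and Lcat. The synthesis enzymes were split, with 3 higher, 5 lower and 8 not called of 16. The member median log2 fold change was -0.07 against 0.06 over all genes, and with upper-quartile scaling it was 0.11 against 0.23, with 8 members higher and 8 lower where 4363 of all genes were higher and 2509 lower.

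Lcat and Stard4 moved furthest below normal liver among the genes of uptake, transfer and esterification. Stard4, a cytosolic carrier of sterol between membranes, had 11.98, 26.3 and 53.3 CPM as its lowest, median and highest level in floxed tumours, against 75.4, 96.8 and 99.9 CPM in the 3 normal livers. Every floxed tumour was below every normal liver, with a log2 fold change of -1.66 ± 0.36 (SE, edgeR adjusted p = 0.00379). Lcat, the plasma enzyme made by hepatocytes that esterifies cholesterol on HDL, had 93.4, 179.8 and 221 CPM in floxed tumours, against 431, 385 and 394 CPM in normal livers. These groups too were apart, with a log2 fold change of -1.23 ± 0.22 (SE, edgeR adjusted p = 0.0014). Soat2 averaged 95.4 ± 31.1 CPM in floxed tumours (SD, n = 6) and had 67.0, 56.5 and 68.8 CPM in normal livers. Its log2 fold change was 0.57 ± 0.28 (SE, edgeR adjusted p = 0.115), and without floxed tumour 5 it was 0.73 ± 0.16 (adjusted p = 0.00404). Scarb1 had 193, 214 and 192 CPM in normal livers, inside the floxed range of 179 to 308 CPM.

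In the mevalonate arm, Idi1, the isomerase that makes dimethylallyl diphosphate, had 3.08, 8.42 and 11.2 CPM as its lowest, median and highest level in floxed tumours, against 15.9, 23.8 and 29.1 CPM in normal livers. The groups did not overlap, and the log2 fold change was -1.59 ± 0.39 (SE, edgeR adjusted p = 0.00756). Pmvk, the phosphomevalonate kinase, had 28.0, 35.5 and 39.9 CPM in floxed tumours, against 44.3, 62.5 and 58.7 CPM in normal livers. It fell by 0.69 on the log2 scale, again without overlap. Mvd, the decarboxylase that acts between these 2 enzymes, had 35.6, 42.3 and 61.6 CPM in floxed tumours, against 13.2, 18.98 and 39.0 CPM in normal livers. Normal liver 3 lay inside the floxed range, and the log2 fold change was 0.95 ± 0.32 (SE, edgeR adjusted p = 0.0300).

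Hmgcs1, the cytosolic synthase at the start of this arm, was listed at 0 counts in every library. What the zeros stand for cannot be seen from the count table, so no level, fold change or test was taken from them. The rest of the arm, Acat2, Mvk and Fdps, had log2 fold changes of 0.06, 0.54 and 0.32 and did not pass.

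In the squalene and sterol arm, Lss, the cyclase that makes lanosterol, had 92.1, 132 and 167 CPM as its lowest, median and highest level in floxed tumours, against 45.9, 65.1 and 83.6 CPM in normal livers. Every floxed tumour was above every normal liver, with a log2 fold change of 0.99 ± 0.24 (SE, edgeR adjusted p = 0.00733). Sqle, with its floxed range of 135 to 240.3 CPM, had 66.3, 104 and 136 CPM in normal livers, where number 3 reached the bottom of the tumour range. The log2 fold change was 0.78 ± 0.27 (SE, edgeR adjusted p = 0.0351).

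The enzymes that act on lanosterol and its products included 3 that fell. Tm7sf2, a sterol reductase, had 39.6, 56.5 and 93.3 CPM in floxed tumours, against 145, 149 and 184 CPM in normal livers. Hsd17b7, a ketosteroid reductase in the removal of the sterol methyl groups, had 31.9, 51.9 and 67.8 CPM in floxed tumours, against 80.4, 98.0 and 115 CPM in normal livers. Ebp, the isomerase of the sterol double bond, had 83.6, 123 and 173 CPM in floxed tumours, against 225, 231 and 309 CPM in normal livers. None of the 3 overlapped between groups, and their log2 fold changes were -1.36, -0.95 and -1.04, with edgeR adjusted p of 0.00164, 0.00514 and 0.0048. Reads of Tm7sf2 may be shared with Vps51, and those of Fdft1 with Ctsb, since the annotated genes overlap and the counting is not stated to use strand. The same holds for Abcg5 with Abcg8 and for Nr1h3 with Acp2, and counts of Acat2 and Idi1 are uncertain where reads match their near copies Acat3 and Idi2. Fdft1, Cyp51, Nsdhl, Sc5d and Dhcr7 did not pass, with log2 fold changes between -0.45 and 0.57.

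Of the 4 sterol sensing genes Insig2 alone passed. It fell to 155 ± 54.5 CPM in floxed tumours (SD, n = 6), against 399.5, 367 and 191 CPM in normal livers, where number 3 lay inside the tumour range. Its log2 fold change was -1.04 ± 0.30 (SE, edgeR adjusted p = 0.0166). Scap had 200.0, 187 and 216 CPM in normal livers, against which its floxed log2 fold change was -0.61 (edgeR adjusted p = 0.0671). Insig1 had 322, 417 and 541 CPM in normal livers, with a floxed log2 fold change of -0.53 (edgeR adjusted p = 0.0979). Srebf2 had 76.1, 79.6 and 76.4 CPM in normal livers, with a floxed log2 fold change of -0.29 (edgeR adjusted p = 0.117).

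Among the efflux genes Abcg1 alone passed. It had 7.76, 7.78 and 6.06 CPM in normal livers, below every floxed tumour, with a log2 fold change of 1.95 ± 0.53 (SE, edgeR adjusted p = 0.0118), and 1.49 ± 0.32 without floxed tumour 5 (adjusted p = 0.00356). All 11 macrophage markers had counts, and their sum was 253 to 969 CPM in floxed tumours, with a median of 523, against 286 to 390 CPM in normal livers. Of the 11, 4 were higher by the test and none lower, while 7 had positive and 4 had negative log2 fold changes. Without Lyz2, a lysozyme gene, the sum was 164 to 758 CPM in floxed tumours against 226 to 336 CPM in normal livers. Their part in the result was not tested. Abca1 had 182, 217 and 211 CPM in normal livers, also below every floxed tumour, but its log2 fold change of 0.38 ± 0.16 (SE) had an edgeR adjusted p of 0.0766. Abcg5 had 106, 99.1 and 109 CPM and Abcg8 had 130.2, 139.7 and 139.9 CPM in normal livers, tight values that lay inside the wide floxed ranges.

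Of the 12 calls, 7 held in all 19 alternatives: Pmvk, Idi1, Tm7sf2, Hsd17b7, Ebp, Stard4 and Lcat. Without normal liver 1 or without normal liver 2 the calls on Insig2, Mvd and Sqle were lost, Mvd and Sqle also without floxed tumour 2 or 4, Sqle also without floxed tumour 6, and Abcg1 missed narrowly without normal liver 3 (adjusted p = 0.0501).

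**Figure D3:**
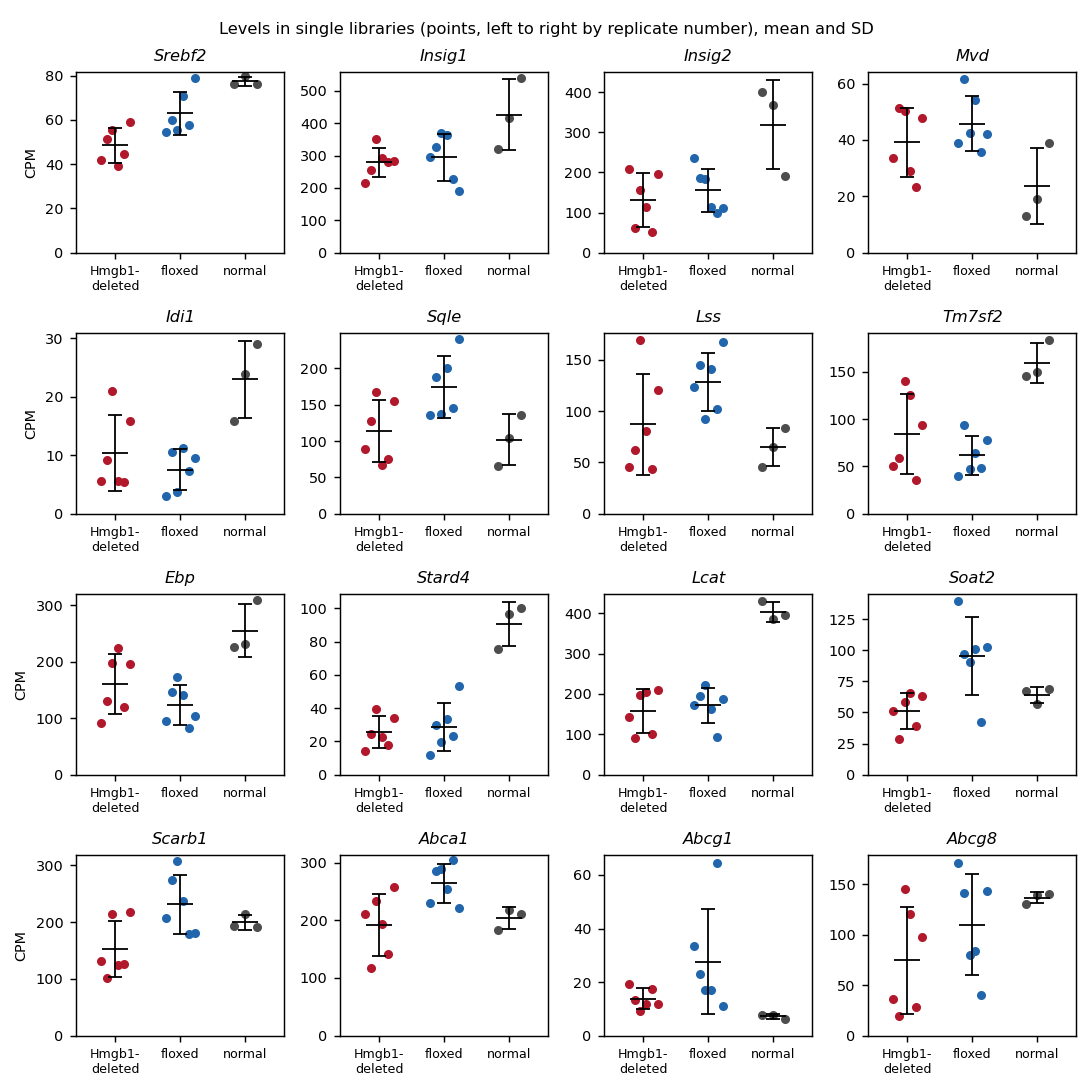
CPM of 16 members in single libraries of Hmgb1-deleted tumours (n = 6), floxed tumours (n = 6) and normal livers (n = 3); points are libraries, bars the mean and SD, and each axis starts at 0. Stard4 and Lcat sit below normal liver in both tumour groups. The means of Lss and Sqle are highest in floxed tumours, though the highest single Lss value is in Hmgb1-deleted tumour 3. Soat2 is lower in Hmgb1-deleted than in most floxed tumours. Lss, Sqle and Soat2 did not pass the edgeR test between the tumour groups.

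Hmgb1-deleted tumours were set against the same normal livers, so the 2 comparisons share their controls and their results are not independent. Of the 30 members 8 passed (edgeR adjusted p under 0.05), 1 higher and 7 lower, where 34.7% of the 13784 genes tested did so, 18.1% higher and 16.6% lower. Abcg1 rose, and Srebf2, Scap, Insig1, Pmvk, Hsd17b7, Stard4 and Lcat fell. The member median log2 fold change was -0.30 against 0.05 over all genes, and 25 of 30 values were negative. Groups did not overlap for 7 members, 1 higher and 6 lower, against 37.6% of all genes, 18.4% higher and 19.1% lower. Of the 16 synthesis enzymes 2 were lower and 14 were not called.

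Of the sterol sensing genes 3 of 4 passed, though Scap lost its call in 10 and Insig1 in 15 of the 22 alternatives. Srebf2, with 39.0 to 59.2 CPM in Hmgb1-deleted tumours against 76.1 to 79.6 CPM in normal livers, did not overlap between groups and fell by 0.65 on the log2 scale (edgeR adjusted p = 0.00959). Scap, with 48.2 to 158 CPM in Hmgb1-deleted tumours against 187 to 216 CPM in normal livers, did not overlap and fell by 1.03 (edgeR adjusted p = 0.0465). Insig1, with 214 to 352 CPM in Hmgb1-deleted tumours against 322 to 541 CPM in normal livers, overlapped and fell by 0.59 (edgeR adjusted p = 0.0478). Insig2 had a log2 fold change of -1.27 ± 0.44 (SE) and an edgeR adjusted p of 0.0503. None of these 4 genes passed between the 2 tumour groups, so a difference between the tumours in their distance from normal liver was not shown.

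Stard4 was the member furthest from normal liver in Hmgb1-deleted tumours, at 14.3, 23.4 and 39.7 CPM as its lowest, median and highest level, against the normal values above. Its log2 fold change was -1.82 ± 0.28 (SE, edgeR adjusted p = 0.0026). Lcat had 90.5, 169.9 and 209.8 CPM in Hmgb1-deleted tumours, with a log2 fold change of -1.34 ± 0.27 (SE, edgeR adjusted p = 0.00665). Both ranges lay wholly below normal liver, as in floxed tumours. Soat2 and Scarb1 had log2 fold changes of -0.32 and -0.37 and did not pass.

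Among the enzymes, Pmvk had 21.7, 31.5 and 45.0 CPM in Hmgb1-deleted tumours and fell by 0.73 on the log2 scale (edgeR adjusted p = 0.0315). Hsd17b7 had 26.7, 46.0 and 80.9 CPM in Hmgb1-deleted tumours and averaged 48.3 ± 18.8 CPM (SD, n = 6), against 97.7 ± 17.1 CPM in normal livers (SD, n = 3), a fall with an edgeR adjusted p of 0.0261. Both reached the normal range with their highest tumour, number 3. Tm7sf2, with 35.9, 76.4 and 140.1 CPM, and Ebp, with 91.2, 164 and 225 CPM, stayed below every normal liver but had edgeR adjusted p of 0.0865 and 0.0841. Idi1, with 5.37, 7.41 and 20.9 CPM, had a log2 fold change of -1.12 ± 0.46 (SE, edgeR adjusted p = 0.0798).

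The enzymes that were higher in floxed tumours had smaller log2 fold changes over normal liver here. They were picked by their calls against the same normal livers, so no conclusion is drawn from the smaller values. Idi1, Tm7sf2 and Ebp, called lower in floxed tumours, also had smaller changes here, while Pmvk and Hsd17b7 did not. Mvd had 23.2, 40.7 and 51.4 CPM in Hmgb1-deleted tumours, with a log2 fold change of 0.74 over normal liver (edgeR adjusted p = 0.146). Lss had 43.6, 71.6 and 169.6 CPM, with a log2 fold change of 0.44 (edgeR adjusted p = 0.453). Sqle had a log2 fold change of 0.18 over normal liver (edgeR adjusted p = 0.705). Mvd, Lss and Sqle did not pass the test between the tumour groups above.

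Abcg1, with 9.19 to 19.4 CPM in Hmgb1-deleted tumours against 6.06 to 7.78 CPM in normal livers, did not overlap and rose by 0.97 on the log2 scale (edgeR adjusted p = 0.0173). The summed macrophage markers were 392 to 561 CPM in Hmgb1-deleted tumours, all above the 286 to 390 CPM of normal livers. Of the 11, 4 were higher and none lower by the test, 5 had negative log2 fold changes, and without Lyz2 the sum was 210 to 449 CPM against 226 to 336 CPM. Their part in the result was not tested. Abca1, Abcg5, Abcg8, Nr1h2 and Nr1h3 did not pass, and Abcg8, with a log2 fold change of -0.87, had a 95% interval from -2.15 to 0.41.

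Stard4 and Lcat held in all 22 alternatives and Srebf2 in all but library totals without a scaling factor. Without normal liver 1, 2 or 3 the count of called members was 4, 3 and 4 in place of 8, and Abcg1 was lost in each case. In the same runs 15%, 15.8% and 22.1% of all genes were called, in place of 34.7%.

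Single libraries of a group differed in the synthesis enzymes. Over the 16 enzymes with counts, the median log2 level relative to the mean of the normal livers was -0.80, -0.42, 0.50, -0.19, -0.91 and 0.25 in Hmgb1-deleted tumours 1 to 6. It was -0.29, 0.48, -0.13, 0.18, -0.26 and -0.01 in floxed tumours 1 to 6, and -0.41, 0.03 and 0.35 in normal livers 1 to 3. Deleted tumours 3 and 6 and floxed tumour 2 were the high ones among tumours, and deleted tumours 1 and 5 the low ones. Deleted tumour 3 was the highest of its group in 14 of the 16 enzymes, and deleted tumour 5 the lowest in 10. Floxed tumour 2 was the highest of its group in 9, and floxed tumour 5 the lowest in 8. Normal liver 1 was the lowest of the 3 in all 16 and normal liver 3 the highest in 15.

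The median of the 4 sterol sensing genes was -0.91, -1.34, -0.41, -0.93, -1.41 and -0.56 in Hmgb1-deleted tumours 1 to 6 and -0.50, -0.43, -0.59, -0.47, -1.13 and -0.55 in floxed tumours 1 to 6, against -0.01 to 0.04 in normal livers. This median was below that of the 3 normal livers in all 12 tumours, though in floxed tumour 6 only 2 of the 4 genes lay below every normal liver. The low libraries, deleted tumours 2 and 5 and floxed tumour 5, were also those with the lowest summed hepatocyte markers, at 78575, 98803 and 113381 CPM, and the part of those markers in the result was not tested. For efflux and LXR genes the median was lowest in the same libraries, at -0.82, -0.64 and -0.34, with deleted tumour 1 also at -0.34, and between -0.06 and 0.34 in the other tumours.

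**Figure D4:**
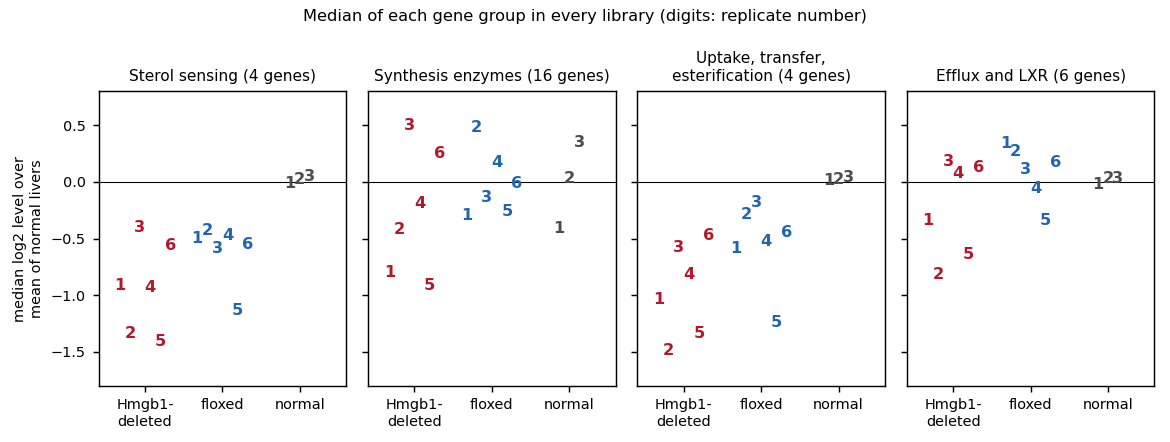
Median log2 level of each gene group relative to the mean of the normal livers (y axis) in every library, drawn as its replicate number, for Hmgb1-deleted tumours, floxed tumours and normal livers (x axis). The medians of the sterol sensing genes and of the genes of uptake, transfer and esterification lie below normal liver in all 12 tumours. The latter 4 genes were split in floxed tumours, with 2 positive (Soat2, Scarb1) and 2 negative (Stard4, Lcat) log2 fold changes. The median of the synthesis enzymes spreads to both sides, from -0.91 to 0.50 in Hmgb1-deleted tumours.

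Genes next to these pathways were followed from 5 lists of 48 genes. Between Hmgb1-deleted and floxed tumours, 8 of the 47 tested genes passed, 5 higher and 3 lower, where 7.78% of all genes did so. Of 6 other enzymes near the pathway, 1 was higher in Hmgb1-deleted than in floxed tumours and is not reported by name here. Another, Acss2, the cytosolic acetyl-CoA synthetase, had 46.4, 79.4 and 116.9 CPM as its lowest, median and highest level in floxed tumours. Normal livers had 190.0, 240.3 and 351 CPM of it. The groups did not overlap, and the gene fell by 1.66 on the log2 scale (edgeR adjusted p = 0.000847). In Hmgb1-deleted tumours it had 60.3, 147 and 225 CPM, overlapping both floxed tumours and normal liver. Its log2 fold change over normal liver was -0.82 (edgeR adjusted p = 0.0944).

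Of 13 tested genes of sterol trafficking, 3 were higher in Hmgb1-deleted than in floxed tumours (Scp2, Stard5 and Lipa) and 2 were lower, Gramd1c among them. These 5 calls were 0 to 5 over the 24 alternatives, with 1 left without floxed tumour 3 or 4 or deleted tumour 4 or 5, and 2 left without floxed tumour 1, 2 or 6 or deleted tumour 2 or 3. Scp2, a lipid carrier of peroxisomes and cytosol, had 743, 1519.7 and 1919 CPM in Hmgb1-deleted tumours, against 439, 591 and 792 CPM in floxed tumours, and a log2 fold change of 1.25 ± 0.27 (SE, edgeR adjusted p = 0.017). Stard5, a sterol and bile acid carrier, had a log2 fold change of 0.77 (edgeR adjusted p = 0.0409). Against normal livers, 3 trafficking genes were higher and 5 lower in floxed tumours, and 2 higher and 4 lower in Hmgb1-deleted tumours, where 48.7% and 34.7% of all genes were called. Scp2 fell in both, by 2.64 in floxed and by 1.40 in Hmgb1-deleted tumours, and so did Lrp1, a large lipoprotein receptor, by 1.77 and 1.54.

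Of 9 genes that LXR regulates or that act with it, Lpl was the single call between the tumour groups. Lpl, the lipase that frees fatty acids from lipoproteins, had 52.7, 100.5 and 162 CPM in Hmgb1-deleted tumours, against 135, 446 and 935 CPM in floxed tumours, and fell by 2.22 on the log2 scale (edgeR adjusted p = 0.0108). In normal livers Lpl had 30.3, 41.5 and 36.9 CPM, below every tumour. Against normal livers, 2 genes of this list were higher and 3 lower in each tumour group, with Ncor1, a co-repressor, and Rxra, the LXR partner, among the lower ones in both. Rnf139, a ubiquitin ligase of the sterol sensing machinery, was the single call of 11 SREBP regulators between the tumour groups, at 0.40 ± 0.11 (SE, edgeR adjusted p = 0.0409). In 13 of the 24 alternatives no gene of that list passed, among them leaving out floxed tumour 1, 2, 3 or 5 or deleted tumour 2, 3, 4 or 6. Against normal livers 2 SREBP regulators were higher and 6 lower in floxed tumours, and 1 higher and 5 lower in Hmgb1-deleted tumours. Mbtps1, the protease that makes the first cut in SREBP, fell in both, by 0.66 in floxed and by 0.68 in Hmgb1-deleted tumours. Of 8 genes of the isoprenoid branch, none passed between the tumour groups by edgeR, with 2 at an unadjusted p under 0.05 (24.3% over all genes), and DESeq2 called 1. Against normal livers Pdss2, which makes the ubiquinone side chain, fell by 1.40 in floxed and by 0.95 in Hmgb1-deleted tumours.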

How the data were processed

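Gene counts of 15 mouse liver libraries were deposited by the authors as whole-number read counts per gene symbol, not normalized. Per the submitters' processing notes, HTSeq 0.6.1, Bowtie2 2.2.4, TopHat2 2.1.0 and bcl2fastq 1.8.4 were used with build mm9. Per the labels' protocols, poly-A RNA was made into Illumina TruSeq libraries. Samples were grouped by the labels' genotype and tissue. No pair of samples from the same group agreed within sampling noise (lowest chi-square per degree of freedom 27.9).

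Each pair of groups was fitted with edgeR 4.0.16 in R 4.3.3 (filterByExpr, TMM factors, robust quasi-likelihood F-test), with Benjamini-Hochberg adjustment over all genes tested and calls at 0.05. CPM used TMM factors over all 15 libraries, so group means and fitted fold changes can differ slightly. The SE is the log2 fold change over the square root of F, and intervals cover 95%. Summaries per library used log2(CPM + 1). Depth is given with the results. In simulated counts 200 genes were changed per comparison. The test found 64% of 2-fold and 87% of 4-fold changes between the tumour groups (13384 genes). It found 39% and 82% in the comparison of floxed tumours with normal livers (13691 genes). In that of Hmgb1-deleted tumours with normal livers it found 48% and 81% (13657 genes). More than 200 genes were called in each real fit, so these rates need not hold there.

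Alternatives were other scalings and filters, DESeq2 1.42.0, limma 3.58.1 voom, 1 fit of all samples, a replicate block, and leaving out libraries. The members and lists were chosen with earlier results of these data known. Levels (lowest, median and highest in tumours, each normal liver) were given for the 6 members with the smallest p between the tumour groups. They were also given for the 12 further ones with the smallest adjusted p against normal liver. Insig1, Insig2, Hmgcs1, Sqle, Srebf2 and the efflux transporters were added. Context lists name up to 3 genes per comparison, and not every called gene is named. Marker lists held 58 genes, of which 57 were in the table. Msmo1 was matched by its older symbol. Replicate numbers were not used as pairs, since the labels give them no shared source and same-number correlations were not all positive. Some genes of the context lists are counted but not reported by name here.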

Additional observations from a re-analysis of the deposited data

How the results depend on the processing

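None of the called members changed sign under any alternative run. Against floxed tumours, the count of called members in Hmgb1-deleted tumours was 1 (Soat2) in place of 0 with RLE factors, upper-quartile factors, library totals without a factor, at least 1 CPM, DESeq2, voom and 1 fit of all 15 samples. These settings called 7.88% to 14.5% of all genes. Leaving out 1 library gave counts between 0 and 1, where 4.34% to 7.8% of all genes were called. Leaving out Hmgb1-deleted tumours 3, 4 and 6 gave 5 called members (5.8% of all genes) and a member median of -0.65. They were chosen from earlier results of these data because they lay nearest to normal liver, so no conclusion is drawn from this run. Leaving out deleted tumours 2 and 5 gave 0 called members (7.95% of all genes) and a median of -0.09. Leaving out deleted tumours 3 and 4 gave 0 called members (3.08%) and a median of -0.37. Deleted tumours 2 and 5 had the lowest sterol sensing medians of their group, and deleted tumours 3 and 4 belong to the set chosen above. No conclusion is drawn from these runs either. Over all 24 alternatives of this comparison, 60 of 720 values of uncalled members had the other sign than in the fit reported, over 16 members.

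For floxed tumours against normal livers the count was 20 with voom (63.6% of all genes) in place of 12 (48.7%). Leaving out 1 library gave 9 to 14, where 34.6% to 50.9% of all genes were called. Lss and Sqle were lost in the edgeR fit of all 15 samples (adjusted p = 0.0522 and 0.0638). On replicate numbers 1 to 3, Insig2 and Sqle were lost with and without the replicate block, and Mvd without it. Srebf2, Scap, Dhcr7 and Soat2 were gained in both of these fits.

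For Hmgb1-deleted tumours against normal livers the count was 5 with upper-quartile factors (36% of all genes) and 5 with library totals without a factor (29.2%), in place of 8. Leaving out 1 library gave 3 to 10, where 15% to 35.9% of all genes were called. Leaving out deleted tumours 3, 4 and 6, chosen as above, gave 17 (47.7% of all genes, against 34.7%) with a member median of -0.70. Without deleted tumours 2 and 5 the count was 6 (31.5%) with a median of -0.13. Without deleted tumours 3 and 4 it was 12 (41.3%) with a median of -0.49. No conclusion is drawn from these runs. Insig1 was lost in 15, Scap in 10, Pmvk in 7, Hsd17b7 in 5 and Abcg1 in 4 of the 22 alternatives. Insig2 was called in 7 of them. The cause was not tested.

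Scaling moved the median of all genes. Upper-quartile factors shifted it by 0.18 for floxed and 0.15 for Hmgb1-deleted tumours against normal livers. Totals without a factor shifted it by 0.18 between the tumour groups and by 0.28 for Hmgb1-deleted tumours against normal livers, and no filter shifted it by 0.13 for floxed tumours.

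With the replicate number as a block the called members were 0 between the tumour groups, 14 for floxed and 11 for Hmgb1-deleted tumours against normal livers. The shares of all genes called were 6.4%, 49.6% and 22.9%. Without the block on the same numbers 1 to 3 the called members were 13 and 4, where 51.9% and 27.6% of all genes were called. Correlations of same-numbered libraries ran between -0.26 and 0.23, and not every library correlated best with its own number. Such correlations cannot exclude a shared source, so whether the numbers pair the libraries is not known.

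At this spread between libraries the 95% interval lay within 1 log2 unit of 0 for 18 members between the tumour groups, 9 for floxed and 14 for Hmgb1-deleted tumours against normal livers.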
